A study of Homo sapiens with 6 samples.

Results

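The genes examined here were the protein-coding genes on chromosome 19 whose symbol is ZNF followed by a number, in a lung adenocarcinoma cell line (A549) after knockdown of DDX17. They were taken from the table of read counts by symbol, gene type and chromosome. Of 225 such genes in the table, 155 passed edgeR's filter on low counts, among 15615 genes of all kinds that passed it. RNA-seq of polyadenylated RNA was done on 6 libraries, 3 from cells transfected with a nontargeting siRNA (siCtrl) and 3 from cells transfected with an siRNA against DDX17 (siDDX17), which the study calls biological replicates. Each arm rests on a single siRNA, and the label of the control libraries names a control plasmid where their titles and the methods name an siRNA. DDX17, a DEAD-box RNA helicase, was at 177, 184 and 206 CPM (read counts scaled to a common library size) in the siCtrl libraries and at 32.1, 30.8 and 30.4 CPM in the siDDX17 libraries.

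Zinc finger proteins of this kind bind DNA through a row of short fingers, each holding a zinc ion between a pair of cysteines and a pair of histidines. Most of those encoded on human chromosome 19 carry a KRAB domain at the amino end, which recruits the corepressor TRIM28 and through it the histone methyltransferase SETDB1 and HP1 proteins, and many of them silence transposable elements. The genes arose by tandem duplication, lie in clusters of relatives, and are known for low transcript levels. Their transcripts hold long runs of finger repeats, so near-identical relatives are hard to tell apart by reads.

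The libraries held 30658136 to 39182371 reads assigned to genes. Between 14.6% and 15.4% of a siCtrl library, and between 12.4% and 12.96% of a siDDX17 library, came from its 10 most abundant genes, and scaling by the trimmed mean of M values (TMM) was used for CPM. The library siCtrl 1 stood apart, since the common biological coefficient of variation was 0.0754 with all libraries and 0.0472 without it. All 10 A549 lineage markers were measured, of which 7 fell, where 24.3% of all genes did, and EPCAM, the epithelial adhesion molecule, rose from a low level of 0.738 to 1.08 CPM in siCtrl. Of 6 alveolar differentiation markers, NAPSA rose from under 1 CPM by 0.90 on the log2 scale, NKX2-1 did not pass, 3 had at most 6 reads in any library and 1 was not analysed here. Of 11 defining markers of blood, endothelial and stromal cells, CD14 and COL1A1 were measured and did not pass the test, 7 had at most 12 reads in any library and 2 were not analysed here. In bulk RNA, fewer cells of a type and less RNA per cell cannot be told apart.

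The ZNF genes of chromosome 19 were higher in siDDX17 far more often than lower. Of the 155 kept, 73 rose (47.1%) and 13 fell (8.39%) at an adjusted p under 0.05 in edgeR's quasi-likelihood test, and 69 did not pass. Of all genes tested, 24.5% were called higher and 24.3% lower. At an additional limit of 1 on the log2 fold change, 29 rose (18.7%) against 4.65% of all genes, and 0 fell against 2.92% of all genes. Of these 29, 7 were over the filter's limit in every siDDX17 library but not in every siCtrl library, which leaves 22 among the 132 over it in all 6 libraries. That count of 0 was also 0 at an unadjusted p under 0.05, in DESeq2 and in limma on the FPKM values. In 88 genes every siDDX17 library was above every siCtrl library, a pattern that 28.8% of all genes showed, and in 15 every siDDX17 library was below, against 27.7%. At the limits in the study's methods, an unadjusted p under 0.01 and a fold change of 1.5, 47 were higher against 11% of all genes and 5 were lower against 8.03%.

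The shift was broad and mostly small. The median log2 fold change of the kept ZNF genes was 0.44 and that of all genes 0.01, and 123 of the 155 had a value above 0, over a range from -0.96 to 1.64. Taking for each library the median difference from the siCtrl mean on the log2 CPM scale, the siCtrl libraries were at 0.04, 0.02 and -0.05 and the siDDX17 libraries at 0.46, 0.38 and 0.41. The groups did not overlap. The summed level of the 155 genes was 801, 795 and 756 CPM in siCtrl and 922, 903 and 887 CPM in siDDX17, a ratio of 1.15. Scaling by library size alone moved the median of all genes by 0.12 and the share of calls that were higher from 50.1% to 67.7% over all genes, and from 84.9% to 92.4% over the ZNF genes.

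A rare transcript could pass the filter through 1 group alone. The filter's limit was 0.278 CPM in at least 3 libraries. Of the 155 genes, 132 were at or over that limit in all 6 libraries, and 66 of these rose and 13 fell. A further 16 reached it in every siDDX17 library but not in every siCtrl library, 7 of which rose, all past the fold limit. These were ZNF708, ZNF221, ZNF233, ZNF229, ZNF805, ZNF671 and ZNF418, and since every siDDX17 library and not every siCtrl library met the filter's limit, their rise supports nothing by itself. A further 3 reached it in every siCtrl library but not in every siDDX17 library, and none of the 3 passed the test. The 120 genes with a mean of at least 0 log2 CPM over all libraries, a choice that favours neither group, held 64 that rose and 12 that fell, where 26.2% and 27.4% of all genes at those levels were called.

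The 70 genes not kept had few reads, with a median of 10 in total over the 6 libraries, a highest count of 20 in any library, and at most 10 in every library for 63 of them. ZNF91, a KRAB protein known to silence SVA retrotransposons, was among these with 14 reads in siCtrl and 44 in siDDX17 in all, as was ZNF649 with 3 and 14. Neither was tested.

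Of the 73 genes that rose, 64 had a match to the KRAB pattern in their protein, and diverged domains such as that of ZNF180 are missed by this pattern. A KRAB match was found in the translated coding sequence of 126 of the 155 genes. Of these 126, 64 rose (50.8%), 3 fell (2.38%) and 26 rose past the fold limit, with a median log2 fold change of 0.53. Of the 29 without a match, 9 rose, 10 fell and 3 rose past the fold limit, with a median of -0.06. The KRAB class alone holds the 16 genes over the filter's limit in every siDDX17 library but not in every siCtrl library. Of those 16, 7 rose, all past the fold limit. With at least 10 reads required in every library, 60 of 105 KRAB genes rose and 3 fell, and 9 of 29 without a match rose and 9 fell. The summed level of the KRAB genes went from 296 ± 15.2 CPM with the control siRNA to 413 ± 14.3 CPM with the DDX17 siRNA (SD, n = 3), a ratio of 1.40. The genes without a match summed to 488 ± 9.85 CPM and 491 ± 11.6 CPM (SD, n = 3), a ratio of 1.01. The difference between the classes was not tested. The median of the genes without a match turned to 0.06 with library size alone, where 12 of them rose and 5 fell, and was also above 0 in limma on FPKM values, while the median of the KRAB genes stayed above 0 in every alternative run.

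**Figure D1:**
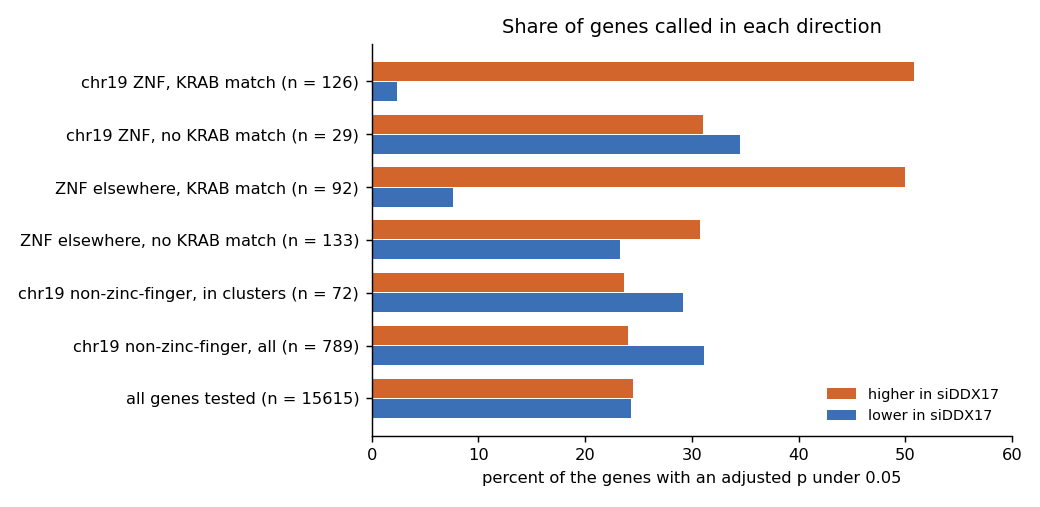
Percent of tested genes called higher (orange) or lower (blue) in siDDX17 at an adjusted p under 0.05, with the number of genes in each set beside its name. KRAB genes were called higher in 50.8% of cases on chromosome 19 and in 50% elsewhere, against 24.5% of all genes tested. Those on chromosome 19 include 16 genes over the filter's limit in every siDDX17 library but not in every siCtrl library, 7 of which rose.

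ZNF genes with a KRAB match on other chromosomes were counted in the same way. Of 92 of them, 46 rose (50%) and 7 fell, with a median log2 fold change of 0.46. Of 133 ZNF genes elsewhere without a match, 41 rose and 31 fell, with a median of 0.04. Of 789 other protein-coding genes of chromosome 19 that are not zinc finger genes, 24% were higher and 31.1% lower, beside 24.5% and 24.3% of all genes, with a median of -0.06. With library size alone 250 of them were higher and 161 lower. Of the 72 of them that lie inside ZNF clusters of at least 3 kept genes, 17 rose and 21 fell, with a median of -0.02.

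Among zinc finger genes of chromosome 19 with other symbols, 5 of 19 rose (26.3%) and 3 fell (15.8%), beside 24.5% and 24.3% of all genes. HKR1, itself a KRAB zinc finger gene, was at 4.58, 3.88 and 3.84 CPM in siCtrl and at 12.3, 12.2 and 12.6 CPM in siDDX17, with a log2 fold change of 1.59 ± 0.102 (SE, adjusted p = 5.48e-08). FIZ1, a zinc finger protein that binds the receptor FLT3, went from 31.4, 30.1 and 28.6 CPM to 11.4, 12.6 and 12.7 CPM, with a log2 fold change of -1.29. Both were picked after their values were seen.

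ZNF227, a KRAB protein with 18 fingers, rose most among the genes with a mean of at least 1 log2 CPM. It was at 3.01, 2.55 and 3.71 CPM in siCtrl and at 10.0, 8.01 and 8.41 CPM in siDDX17. All siDDX17 libraries were above all siCtrl libraries, a log2 fold change of 1.50 ± 0.144 (SE, adjusted p = 2.11e-06). The gene lies at chr19:44207547-44237268 on the plus strand of GRCh38, and its end overlaps ZNF235 on the minus strand, which had a log2 fold change of 1.14 and also rose.

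ZNF302, with 7 fingers, was one of the better measured KRAB genes at 2.99 FPKM over all libraries. Its levels of 6.56, 6.96 and 6.40 CPM in siCtrl and 14.4, 13.5 and 12.7 CPM in siDDX17 did not overlap, a log2 fold change of 1.03 ± 0.0911 (SE, adjusted p = 9.82e-07). ZNF226, with 17 fingers, went from 8.39, 9.75 and 9.37 CPM to 16.8, 16.2 and 17.7 CPM, a log2 fold change of 0.88. ZNF766 went from 4.64, 4.47 and 3.58 CPM to 10.9, 8.45 and 9.06 CPM, a log2 fold change of 1.17. In each the lowest siDDX17 library was above the highest siCtrl library.

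ZNF160, a KRAB protein reported as a repressor of the TLR4 gene, was at 2.01, 2.59 and 1.84 CPM in siCtrl and at 4.62, 4.53 and 4.49 CPM in siDDX17, a log2 fold change of 1.10. ZNF559 went from 1.36, 1.22 and 1.36 CPM to 3.11, 3.21 and 3.61 CPM, a log2 fold change of 1.33. ZNF431 went from 1.27, 1.12 and 1.44 CPM to 3.09, 2.85 and 2.99 CPM, a log2 fold change of 1.21. These are low levels, and the span of ZNF559 overlaps the readthrough gene ZNF559-ZNF177, which did not pass the test at a log2 fold change of 0.67. The other KRAB genes among the 15 that rose most at this level were ZNF761, ZNF791, ZNF544, ZNF558, ZNF627 and ZNF317, with log2 fold changes of 1.09, 1.02, 0.9998, 0.90, 0.80 and 0.75.

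Of the genes without a KRAB match, ZNF134 and ZNF121 were among those 15. ZNF121, with 9 fingers, went from 6.62, 6.01 and 6.48 CPM to 15.5, 13.6 and 13.6 CPM, a log2 fold change of 1.16 ± 0.0944 (SE, adjusted p = 4.81e-07). ZNF134, with 10 fingers, went from 3.69, 2.66 and 2.32 CPM to 7.06, 7.38 and 6.26 CPM, a log2 fold change of 1.25. ZNF714 rose by 1.48 on the log2 scale from 0.473, 0.524 and 0.507 CPM to 1.69, 1.18 and 1.32 CPM, and its canonical transcript holds no KRAB match although its neighbours do. The largest value of all was that of ZNF17, a log2 fold change of 1.64, from 0.591, 0.874 and 0.507 CPM to 1.89, 2.30 and 1.87 CPM. Both lie under 1 log2 CPM and were picked after their values were seen.

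**Figure D2:**
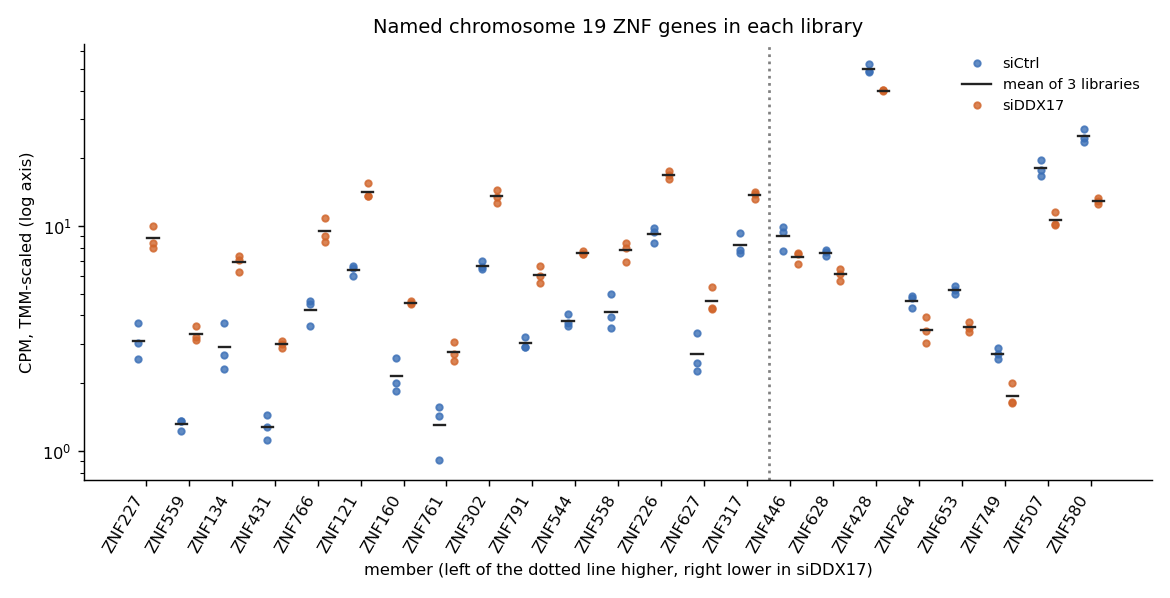
CPM (log axis) in each of the 3 siCtrl (blue) and 3 siDDX17 (orange) libraries for the 15 ZNF genes that rose most and the 8 that fell most under the rule on level and overlap, with bars at the means. All were chosen from genes whose groups do not overlap, and the log2 fold changes run from 1.50 at the left to -0.96 at the right.

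Of the 13 genes that fell, 10 had no KRAB match and 9 had a transcript of at least 60% GC. ZNF580, with 3 fingers, fell most, from 27.1, 24.5 and 23.7 CPM to 12.5, 12.9 and 13.3 CPM, a log2 fold change of -0.96 ± 0.0775 (SE, adjusted p = 4.36e-07). Its span of chr19:55635016-55643470 overlaps that of ZNF581 on the same strand, and ZNF581 rose from 35.5, 36.9 and 34.3 CPM to 46.9, 53.2 and 48.8 CPM, a log2 fold change of 0.48. How reads in the shared stretch were assigned is not given in the sources used here, so the opposite calls of this pair are uncertain.

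ZNF507, which stands alone at chr19:32345594-32387667, fell from 19.6, 17.8 and 16.8 CPM to 11.5, 10.2 and 10.1 CPM, a log2 fold change of -0.77 ± 0.0900 (SE, adjusted p = 1.29e-05). It was the only kept ZNF gene under 40% GC that fell. ZNF653, reported as a corepressor of the nuclear receptor SF-1, went from 4.99, 5.21 and 5.42 CPM to 3.37, 3.76 and 3.50 CPM, a log2 fold change of -0.56. ZNF628 and ZNF446, neither with a KRAB match, had log2 fold changes of -0.32 and -0.30, and their calls were lost in 4 and 9 of 14 alternatives. The genes with a KRAB match that fell were ZNF749 at -0.62 and ZNF264 at -0.42 and, under 1 log2 CPM, ZNF530 at -0.73. Diverged domains are missed by the pattern, so a gene without a match may still hold one. The call of ZNF264 was lost in 6 of 14 alternatives.

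Among genes named for a known role, ZNF274, a KRAB protein that binds the finger-coding ends of other ZNF genes and brings SETDB1 to them, rose from 9.86, 9.05 and 10.6 CPM to 10.9, 12.5 and 12.6 CPM. Its log2 fold change was 0.29 (adjusted p = 0.0234 in edgeR's test). ZNF224, reported as a repressor of the aldolase A gene, rose from 1.98, 1.40 and 1.63 CPM to 2.91, 2.17 and 2.36 CPM, a log2 fold change of 0.56. The call of ZNF224 was lost without siCtrl 2, siCtrl 3 or siDDX17 1 (adjusted p up to 0.112), and that of ZNF274 without siCtrl 2, siDDX17 2 or siDDX17 3 (adjusted p up to 0.107). ZNF331, an imprinted gene, was at 5.55, 4.86 and 4.56 CPM in siCtrl and at 5.22, 4.11 and 4.91 CPM in siDDX17, where the groups overlapped.

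Expression level went with class. Per length, the kept ZNF genes had a median of 0.483 FPKM against 2.96 FPKM for all genes tested, with 0.37 FPKM for those with a KRAB match and 3.18 FPKM for those without. The highest by this scale were ZNF428 at 30.4 FPKM, ZNF581 at 26.0, ZNF787 at 17.1, ZNF444 at 16.2 and ZNF524 at 14.9, none with a KRAB match. ZNF428, whose canonical protein holds 1 finger match, fell from 48.4, 52.7 and 49.1 CPM to 40.2, 40.1 and 39.8 CPM, a log2 fold change of -0.32. ZNF444 and ZNF524 fell with log2 fold changes of -0.18 and -0.20, and ZNF787 at -0.05 did not pass. The call of ZNF524 was lost in 9 of 14 alternatives and that of ZNF444 in 7, library size alone among them.

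Of the 35 genes under 0 log2 CPM, 9 rose and 1 fell, where 15.4% and 7.88% of all genes at that level were called. Of these 9, 7 were not over the filter's limit in every siCtrl library, and among the 12 genes of this level that were over the limit in all 6 libraries 2 rose and 1 fell. Of the 72 between 0 and 2, 39 rose and 2 fell, against 26.8% and 13.7%. Of the 36 between 2 and 4, 20 rose and 5 fell, against 27.5% and 25.4%, and of the 12 at 4 and over, 5 rose and 5 fell, against 25.2% and 33.8%. Both classes had members in the ranges of 0 to 2 and 2 to 4. Between 2 and 4, 17 of 24 KRAB genes rose and 1 fell, and 3 of 12 without a match rose and 4 fell. The medians there were 0.54 and -0.14. Between 0 and 2, 37 of 66 KRAB genes rose and 1 fell, and 2 of 6 without a match rose and 1 fell. Their medians of 0.44 and 0.47 did not set the classes apart. At 4 and over, ZNF480 was the only KRAB gene, so level and class cannot be told apart there.

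**Figure D3:**
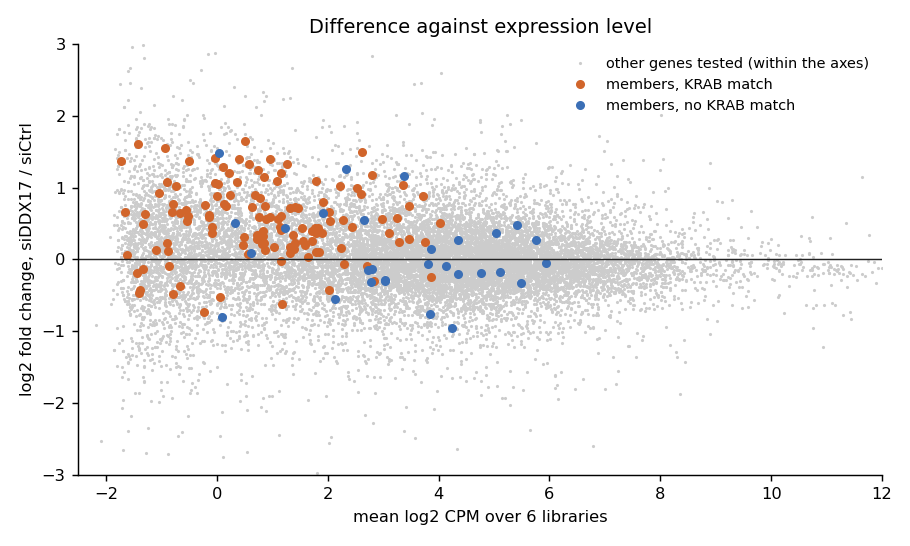
Log2 fold change against the mean log2 CPM of the 6 libraries for ZNF genes of chromosome 19 with (orange) and without (blue) a KRAB match, over the other genes tested that lie within the axes (grey). Orange points lie mostly below 4 log2 CPM and above 0 on the vertical axis, and 11 of the 12 ZNF genes at 4 log2 CPM and over have no KRAB match.

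Base composition also went with class. The median GC content of the canonical transcript was 42.7% in the KRAB genes and 62.6% in the others, and all 19 genes at 60% GC and over lacked a KRAB match. Of these 19, 3 rose and 9 fell, where 25.1% and 27.6% of all protein-coding genes at that GC content were called. Of the 35 genes under 40% GC, 19 rose and 1 fell, and of the 66 between 40% and 45%, 36 rose and 2 fell. Between 45% and 50%, 11 of 25 rose and 1 fell. Between 50% and 60%, 4 of 10 rose and 0 fell, with a median log2 fold change of 0.05. Of all protein-coding genes, 23.4% to 27.9% were called higher and 22.1% to 30.9% lower in each range of GC content. Below 45% GC there were 7 genes without a KRAB match. Of these, 6 rose (ZNF714, ZNF121, ZNF134, ZNF180, ZNF260 and ZNF146) and ZNF507 fell, several of them named here after their values were seen. ZNF180 has a diverged KRAB domain that the pattern misses, and the canonical transcript of ZNF714 holds no match although its neighbours do. The parts of class, level and base composition in the result were not tested.

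**Figure D4:**
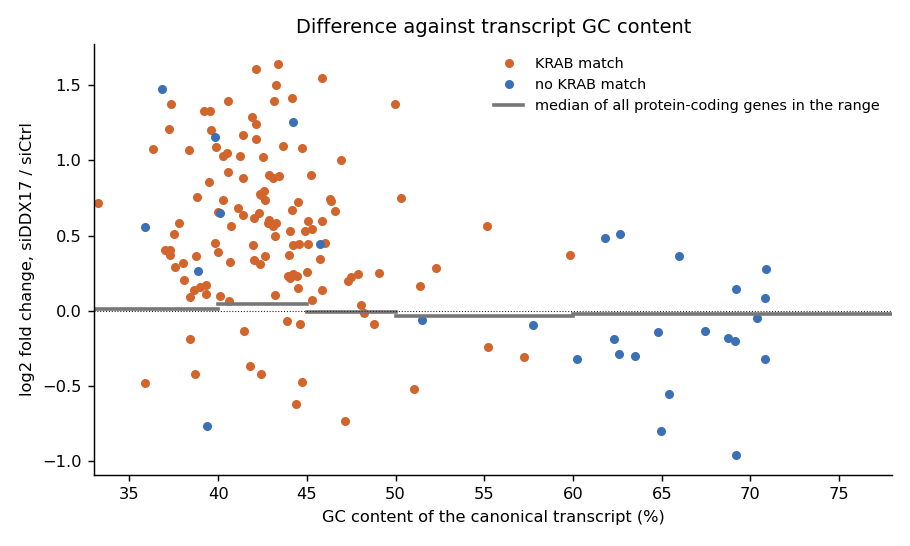
Log2 fold change of each kept ZNF gene against the GC content of its canonical transcript, with grey bars at the median of all protein-coding genes in 5 ranges of GC content. The KRAB genes lie below 60% GC and mostly above 0, while the 19 genes at 60% and over have a median of -0.18.

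The number of fingers ranged from 1 to 26, with a median of 12.5 in the KRAB genes and 8 in the others. Of the 11 genes with 1 to 5 fingers, 2 rose and 6 fell, beside 24.5% and 24.3% of all genes. A KRAB match was found in 2 of these 11, and the 11 had a median GC content of 62.6%. Finger number was not separated there from class and base composition. With 6 to 9 fingers, 17 of 36 rose and 2 fell. With 10 to 12 it was 22 of 39 and 0, with 13 to 15 it was 13 of 32 and 3, and with 16 and over 19 of 37 and 2. Among KRAB genes the share that rose was between 41.4% and 55.6% in every range of at least 6 fingers.

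Along the chromosome, the rise was present in most clusters of at least 5 genes. A new cluster was started where the next kept gene lay over 1 Mb away, which gave 17 clusters, 9 of them with at least 5 genes and 141 genes among them. Their median log2 fold changes lay between 0.14 and 1.21, all above 0, and 8 of the 9 held more genes that rose than fell. The exception was the cluster nearest the short-arm end, from ZNF554 to ZNF77 (chr19:2819868-2944971), where 0 of 5 rose and 0 fell. One of the 8, from ZNF653 to ZNF791 (chr19:11483427-12633840), was near the background. There 2 of 7 rose (28.6%) and 1 fell (14.3%), beside 24.5% and 24.3% of all genes.

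The cluster at chr19:43525497-45076478, from ZNF575 to ZNF296, held 22 genes, 17 with a KRAB match. Of the 22, 13 rose (59.1%) and 2 fell (9.09%), beside 24.5% and 24.3% of all genes. Past the fold limit 8 rose (36.4%), beside 4.65% of all genes. Within the cluster, ZNF234, ZNF226, ZNF227, ZNF235, ZNF233, ZNF112, ZNF285, ZNF229 and ZNF180 stand in a row and all rose. Their log2 fold changes were 1.40, 0.88, 1.50, 1.14, 1.61, 1.05, 1.29, 1.41 and 0.65. ZNF233 and ZNF229 of this row, and ZNF221 of the same cluster, were not over the filter's limit in every siCtrl library, and of the 19 genes of the cluster that were over it in all 6 libraries 10 rose, 5 past the fold limit, and 2 fell. ZNF575 and ZNF428, both near its proximal edge and GC-rich, fell. The run was picked after its values were seen.

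Over all genes 24.5% rose, 4.65% past the fold limit, and 24.3% fell. In the cluster at chr19:51571283-53580269, from ZNF175 to ZNF331, all 15 genes had a KRAB match. Of these 15, 10 rose (66.7%), 5 past the fold limit (33.3%), and 0 fell, with a median of 0.76. ZNF841 and ZNF616 of this cluster, which did not pass the test, were not over the filter's limit in every siCtrl library. In the cluster at chr19:21020634-21852125, from ZNF430 to ZNF43, 3 of 5 rose, all past the fold limit, with a median of 1.21, the highest among the 9, where ZNF708 was not over the filter's limit in every siCtrl library. ZNF43, a member of the same family as ZNF91, was at -0.48 and did not pass. In the cluster at chr19:36182276-37817300, from ZNF565 to ZNF573, 9 of 17 rose and 0 fell, but ZNF570 alone passed the fold limit, and the median was 0.41. At chr19:7069703-9793180, from ZNF557 to ZNF846, 8 of 13 rose and 0 fell, with a median of 0.60. ZNF585A of the cluster from ZNF565 to ZNF573 and ZNF846 of this one did not pass the test. Neither was over the filter's limit in every siCtrl library.

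The largest cluster, at chr19:55476617-58481230 near the long-arm end, held 52 genes, of which 22 rose (42.3%) and 8 fell (15.4%), beside 24.5% and 24.3% of all genes. Split at gaps of 500 kb, it had a proximal part of 12 genes, 3 with a KRAB match, in which 5 rose and 4 fell with a median of 0.11, and a distal part of 40 genes, 35 with a match, in which 17 rose and 4 fell with a median of 0.44. ZNF805, ZNF671 and ZNF418 of this cluster, which rose, were not over the filter's limit in every siCtrl library. Nor were ZNF460, ZNF772, ZNF814 and ZNF256, which did not pass the test. Of the 13 kept ZNF genes that fell, 8 lay in this cluster. Among the 138 pairs of neighbouring genes within clusters the log2 fold changes had a Pearson correlation of 0.24 across pairs, which share neighbours and relatives and are not independent. Both genes rose in 38 pairs and the calls were opposite in 10.

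**Figure D5:**
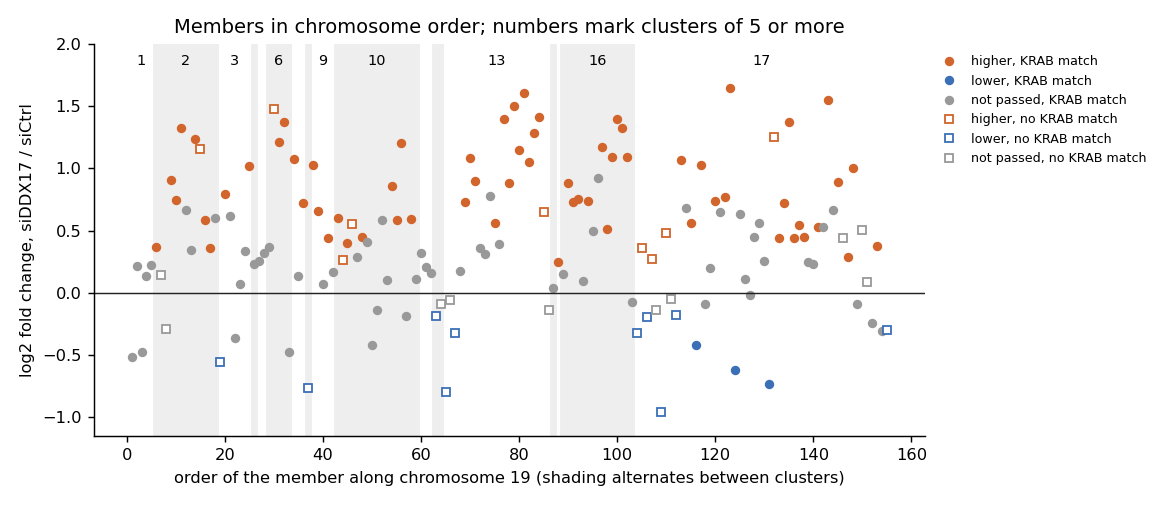
Log2 fold change of the 155 kept ZNF genes in their order along chromosome 19, coloured by call, with filled circles for a KRAB match and open squares for none, shading that alternates between clusters and numbers over clusters of at least 5 genes. Genes that rose are spread over the chromosome, and 8 of the 13 that fell lie in the last cluster.

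Many of these genes overlap others. The span of 93 of the 155 overlaps that of another gene in the table, 56 on the same strand. Of the 62 genes with no overlap, 32 rose and 4 fell, with a median of 0.41, and of the 93 with overlap 41 rose and 9 fell, with a median of 0.45. Counts of near-identical relatives such as ZNF585A and ZNF585B, ZNF587 and ZNF587B, or ZNF324 and ZNF324B are uncertain, since uniquely mapped reads alone were counted and the share of reads lost in each gene was not measured.

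The start regions of the ZNF genes shared short sequence words. RefSeq windows of 300 bases, 250 before and 50 after the start on GRCh38.p14, were found for 141 of the 155 genes (173 windows). The words of 8 bases with the largest difference in share from the 14552 windows of all tested protein-coding genes, counted on both strands, were TCTGGGAA, in 20.8% of the ZNF windows against 2.60% of all, AATGTAGT, in 18.5% against 1.08%, and ACTTCCGG, in 23.1% against 7.19%. They were ranked after the sequences were seen and the ZNF windows are among all windows. ZNF genes with TCTGGGAA numbered 34, 32 of them with a KRAB match, and 19 of the 34 rose and 0 fell. Of the 107 with a window but without it 45 rose and 12 fell. The 126 KRAB genes were called higher in 50.8% and lower in 2.38%, beside 24.5% and 24.3% of all genes. Word and class were not told apart here. With AATGTAGT 12 of 31 rose and 3 fell, and without it 52 of 110 rose and 9 fell. With ACTTCCGG 16 of 40 rose and 3 fell, and without it 48 of 101 rose and 9 fell. The TATA word TATAAA was in 2.89% of the ZNF windows against 6.17% of all, and CCAAT in 46.2% against 34.3%, where short words match often by length alone. A match is a description of letters and not a bound site.

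The windows of 3 genes that rose, ZNF302, ZNF226 and ZNF134, and of ZNF507, which fell, are given 5′ to 3′ on the plus strand, to show where the words stand, with capitals at any of the 20 words of 8 bases that differed most in share. The windows span chr19:34677428-34677727, chr19:44164850-44165149, chr19:57613992-57614291 and chr19:32345360-32345659. In ZNF302 and ZNF226 the capitals hold TCTGGGAA, in ZNF226 and ZNF134 ACTTCCGG, and the window of ZNF507 holds none of the 20. The 3 genes that rose were picked for holding most of the 20 words among the named risers with a single window. ZNF507 was picked for the largest fall among named genes with a single window. The contrast between the 3 and ZNF507 thus follows from the choice and shows nothing about risers and fallers.
ZNF302: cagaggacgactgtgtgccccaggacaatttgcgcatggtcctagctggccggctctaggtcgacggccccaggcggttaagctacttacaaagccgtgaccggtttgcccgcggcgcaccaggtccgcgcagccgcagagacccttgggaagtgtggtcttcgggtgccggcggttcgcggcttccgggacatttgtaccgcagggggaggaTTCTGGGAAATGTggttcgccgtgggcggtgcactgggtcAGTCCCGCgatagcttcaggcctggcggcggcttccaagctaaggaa
ZNF226: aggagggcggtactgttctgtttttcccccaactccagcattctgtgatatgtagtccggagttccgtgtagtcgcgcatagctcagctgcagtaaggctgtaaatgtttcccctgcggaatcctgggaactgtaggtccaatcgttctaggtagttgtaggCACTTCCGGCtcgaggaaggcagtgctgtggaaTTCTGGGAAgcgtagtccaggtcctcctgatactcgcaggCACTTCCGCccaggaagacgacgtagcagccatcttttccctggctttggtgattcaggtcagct
ZNF134: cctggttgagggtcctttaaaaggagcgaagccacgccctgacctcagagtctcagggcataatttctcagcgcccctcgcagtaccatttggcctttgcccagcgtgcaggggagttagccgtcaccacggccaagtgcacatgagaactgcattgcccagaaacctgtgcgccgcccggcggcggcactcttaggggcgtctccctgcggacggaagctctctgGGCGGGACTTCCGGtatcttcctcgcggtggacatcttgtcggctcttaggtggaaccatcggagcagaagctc
ZNF507: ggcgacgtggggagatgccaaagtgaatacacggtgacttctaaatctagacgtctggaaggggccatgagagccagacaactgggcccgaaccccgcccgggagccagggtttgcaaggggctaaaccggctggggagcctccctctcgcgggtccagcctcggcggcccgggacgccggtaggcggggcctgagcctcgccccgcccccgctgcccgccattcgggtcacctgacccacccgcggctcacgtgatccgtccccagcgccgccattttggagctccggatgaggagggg

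A sequence word tied to the control siRNA was also counted. TCGGAGA is the word that pairs with bases 2 to 8 of the sense strand of the control siRNA given in the methods. It was in the coding sequence of 19 kept ZNF genes, all with a KRAB match, of which 13 rose and 0 fell with a median log2 fold change of 0.74. Of the 107 KRAB genes without it in the coding sequence, 51 rose and 3 fell with a median of 0.45. Of 22 matches, 17 start inside a finger. Among all protein-coding genes tested, 41.6% of the 1237 with the word upstream of the 3′ UTR were higher and 17.1% lower, against 24.1% and 27.6% of those without it, and 48.2% of the 274 with it in the 3′ UTR were higher and 12.4% lower. Just 2 ZNF genes had it in the 3′ UTR. Words for the other strand of the control siRNA and for either strand of the DDX17 siRNA were not counted, nor was any control word. Whether these differences are particular to TCGGAGA is thus not known. The part of the control siRNA in these differences was not tested.

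Of 30 listed genes of the corepressor machinery that KRAB proteins use, all measured, 7 rose (23.3%), 10 fell (33.3%) and 13 did not pass, with a median log2 fold change of -0.03. Over all genes 24.5% were higher and 24.3% lower, so the count of the list is not set apart from the background. TRIM28, the corepressor that binds KRAB directly, fell from 501 ± 23.9 CPM to 403 ± 15.95 CPM (SD, n = 3), a log2 fold change of -0.31 (adjusted p = 0.000641). SETDB1, at -0.06, did not pass. The HP1 gene CBX5 fell at -0.21 and its relative CBX1 rose at 0.39. Of the HUSH silencing complex, TASOR rose at 0.67 and its partner MORC2 fell at -0.32.

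SUMO2, a modifier protein gene, rose at 0.38. Among histone deacetylase and remodeller genes, HDAC1 rose at 0.90 and CHD3 at 0.48. The histone methyltransferase genes SUV39H1 and EHMT2 fell at -0.69 and -0.23, while SUV39H2 rose at 0.52. The DNA methylation genes UHRF1 and DNMT1 fell at -0.57 and -0.31, the histone chaperone gene DAXX fell at -0.32, and its partner ATRX rose at 0.40.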

How the data were processed

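Polyadenylated RNA of 6 A549 libraries, 3 siCtrl and 3 siDDX17, was sequenced after stranded library preparation. Per the methods, reads were trimmed and aligned to GRCh38 by the authors with TopHat2 (at most 4 mismatches), and those mapping uniquely were kept. The authors deposited raw counts of reads per gene and FPKM values rounded by them. The counting program, annotation and use of strand are not given in the sources used here. All p-values measure the spread between these libraries.

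The counts were tested with edgeR 4.0.16 in R 4.3.3 (filterByExpr, TMM scaling, glmQLFit and glmQLFTest, Benjamini-Hochberg adjustment over all genes tested); SE is the log2 fold change over the root of F. DESeq2 1.42.0, limma 3.58.1 on log2(FPKM + 1) and log2(FPKM + 0.1), other scalings and filters, and each library left out in turn were alternatives. The members and lists were chosen with earlier results of these data known.

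Positions, transcripts and canonical coding sequences came from GENCODE 44 (GRCh38), matched by gene ID for all 155 genes. Since no protein table was used, the coding sequences were translated. A finger was read as C, 2 to 4 residues, C, 12 residues, H, 3 to 5 residues, H, and KRAB by a short A-box pattern, which misses diverged domains such as that of ZNF180. Older symbols were matched by gene ID. Named genes were the 15 with the largest rise and the 8 with the largest fall among those past the test whose groups did not overlap and whose mean log2 CPM was 1 or more, the 5 with the highest FPKM, and ZNF91, ZNF274, ZNF331, ZNF224 and ZNF649 for known roles, with the corepressor genes that passed, some of which are not reported here.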

Additional observations from a re-analysis of the deposited data

How the results depend on the processing

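No ZNF gene called in edgeR's TMM fit changed sign in any alternative run. Scaling by library size alone gave 85 higher and 7 lower, against 33.5% and 15.97% of all genes. Its median was 0.56, against 0.13 for all genes, and its summed ratio was 1.25. With limma on log2(FPKM + 1), 81 were higher and 6 lower, against 33.3% and 15.2% of all genes. There 1 was higher past the fold limit, against 1.02% of all genes, and the median was 0.15, against 0.07. With log2(FPKM + 0.1), 6 were lower and 11 higher past the fold limit, against 15.2% and 3.93% of all genes. These pseudocounts shrink low genes. The limits of the study's methods gave 47 higher and 5 lower, against 11% and 8.03% of all genes. DESeq2 gave 62 higher and 11 lower, against 21.9% and 23.2% of all genes. Leaving out 1 library at a time gave 60 to 77 higher and 7 to 13 lower. The runs without siDDX17 1, 2 and 3 had 7, 8 and 7 lower. Of all genes, 20.1% to 26.4% were then higher and 19.6% to 26.96% lower. Past the fold limit 24 to 31 were higher and 0 to 1 lower (ZNF580, without siCtrl 3). Over all genes those shares were 4.49% to 4.995% and 2.78% to 2.99%. The medians were 0.41 to 0.47 and the summed ratios 1.13 to 1.16. Without siCtrl 1, 77 of 157 were higher and 13 lower, against 26.4% and 26.96% of all genes. A gap of 2 Mb gave 8 clusters. Replicate numbers did not pair the libraries (correlations of same-numbered deviations 0.00698, 0.0407 and -0.0564). The replicate block gave 69 higher, 14 lower, 29 higher past the fold limit and a median of 0.44. In that run 23.97% of all genes were higher, 23.94% lower and 4.64% higher past the fold limit. Of the single genes named, ZNF331 turned to 0.0507 with library size, 0.0236 and 0.0462 in limma at pseudocounts of 1 and 0.1, and ranged from -0.145 to 0.0202 with 1 library left out, and ZNF787 turned to 0.0714, 0.0726 and 0.0764 under the first 3 of these. Over 30 named genes, 371 of 420 such values kept direction and call and 41 kept direction but lost the call, those of ZNF524, ZNF446, ZNF444, ZNF264, ZNF628, ZNF224 and ZNF274. The cause of these changes was not tested. Depth limits the rare genes: the kept ZNF genes had a median of 77.5 reads per library against 420.8 for all genes tested.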
